A study of Mus musculus with 2 samples.

Results

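Integrins are paired surface receptors, each made of an alpha and a beta chain, that tie cells to matrix proteins and to other cells. The 10 genes described here were chosen by name: Itga2b, Itgb3, Itga4, Itgb1, Itga5, Itga6, Itgav, Itgb2, Itgam and Itgb7, of 21947 genes named on the arrays. Every probeset that the platform annotation names with 1 of these symbols alone was taken as a member's probeset. Of the 10 genes, 9 were measured, and Itga4 was not, because 3 of its 18 probesets were bright enough.

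The 2 arrays hold total RNA of mouse cells sorted for CD41, the protein encoded by Itga2b. The LSD1 inhibitor array is of cells cultured with 300 nM of compound B, a code name, and the DMSO array is of control cells given the solvent. Both cultures began as FLK1-positive cells taken at day 3 from embryoid bodies of the Bry-GFP embryonic stem cell line, and CD41-positive cells were sorted at day 2 of culture. The cells are labelled hemogenic endothelial cells, the endothelium from which blood emerges. With 1 array a condition there is no replicate, so all values below are descriptions of these 2 arrays without a test, and their precision is limited by the number of arrays.

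In the embryo CD41 is among the first surface markers of cells that turn from endothelium to blood, and later it marks megakaryocytes and platelets. It pairs only with the beta3 chain, forming the receptor αIIbβ3 that binds fibrinogen. The beta1 chain pairs with α4, α5, α6 and αV among others and serves adhesion to fibronectin, laminin and VCAM1. The beta2 and beta7 chains belong to white blood cells. The 2 array values of a probeset are on a log2 scale. A probeset was called bright if the higher of its 2 values reached 3.17, the median of the whole table. A gene's level is the median of its bright probesets on an array, and its difference is the median of their differences (inhibitor minus DMSO), so a difference and the gap of the levels can diverge. The SD beside a difference is the spread over the gene's probesets, not a replicate error.

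The series is about Gfi1 proteins, which recruit LSD1 to DNA, so the stretches before the start of 4 members are shown: the sort marker gene Itga2b, Itga5 and Itgav, the member alpha chains with the highest and lowest difference among those with a window, and Itga4, most of whose probesets carry a second gene name. No window was found for Itga6, Itgb3 or Itgb2. Capitals mark matches, on either strand, to GGAAG, a core bound by ETS factors, and to TGTGGT, a core bound by RUNX factors. The windows come from RefSeq on GRCm38.p6 and hold the 250 bases before the gene's start, written 5′ to 3′ along the gene. They lie at chr11:102469884-102470133 on the minus strand (Itga2b), chr15:103366792-103367041 on the minus strand (Itga5), chr2:83724147-83724396 on the plus strand (Itgav) and chr2:79255176-79255425 on the plus strand (Itga4).
Itga2b: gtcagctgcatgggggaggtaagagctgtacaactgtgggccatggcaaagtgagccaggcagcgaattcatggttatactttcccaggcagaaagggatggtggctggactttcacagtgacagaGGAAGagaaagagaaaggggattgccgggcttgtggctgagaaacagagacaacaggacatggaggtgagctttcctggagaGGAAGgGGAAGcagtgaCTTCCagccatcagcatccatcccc
Itga5: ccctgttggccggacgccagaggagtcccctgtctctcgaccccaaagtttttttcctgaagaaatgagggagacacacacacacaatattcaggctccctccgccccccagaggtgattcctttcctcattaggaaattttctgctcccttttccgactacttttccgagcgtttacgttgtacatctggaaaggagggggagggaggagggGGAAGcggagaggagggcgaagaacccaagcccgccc
Itgav: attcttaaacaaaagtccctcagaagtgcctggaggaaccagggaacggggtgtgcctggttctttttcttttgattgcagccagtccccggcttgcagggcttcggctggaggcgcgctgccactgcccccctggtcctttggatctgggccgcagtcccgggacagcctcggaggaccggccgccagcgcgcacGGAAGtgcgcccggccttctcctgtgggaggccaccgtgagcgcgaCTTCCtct
Itga4: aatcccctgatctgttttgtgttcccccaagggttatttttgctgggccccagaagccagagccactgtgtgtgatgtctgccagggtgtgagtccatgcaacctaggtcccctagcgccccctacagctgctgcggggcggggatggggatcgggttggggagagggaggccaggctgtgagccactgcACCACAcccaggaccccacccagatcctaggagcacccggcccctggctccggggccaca
Windows were found for 7 of the 10 genes. GGAAG was in 6 of the 7, with 4 matches before Itga2b, against 64.1% of all 32851 promoter windows. TGTGGT was in 1 of the 7, that of Itga4, against 14.0% of all windows. Neither AAATCA, a core of Gfi1 binding sites, nor GATAA, a core bound by GATA factors, was in any of the 7, and they were in 12.4% and 22.6% of all windows. No base lay in matches to 2 motifs. A match is a description of the letters and not a bound site.

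None of the 9 measured integrin genes differed by the size rule, a log2 difference of at least 1 (2-fold) with at least 75% of bright probesets in the same direction. Over all 15087 measured genes, 1.72% were higher with the inhibitor by this rule and 0.563% were lower. The members' median difference was -0.12, against 0.06 over all measured genes, and 3 of the 9 were above 0. The differences ran from -0.49 for Itgav to 0.67 for Itga6, inside the central 90% of all measured genes, which spans -0.50 to 0.68.

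**Figure D1:**
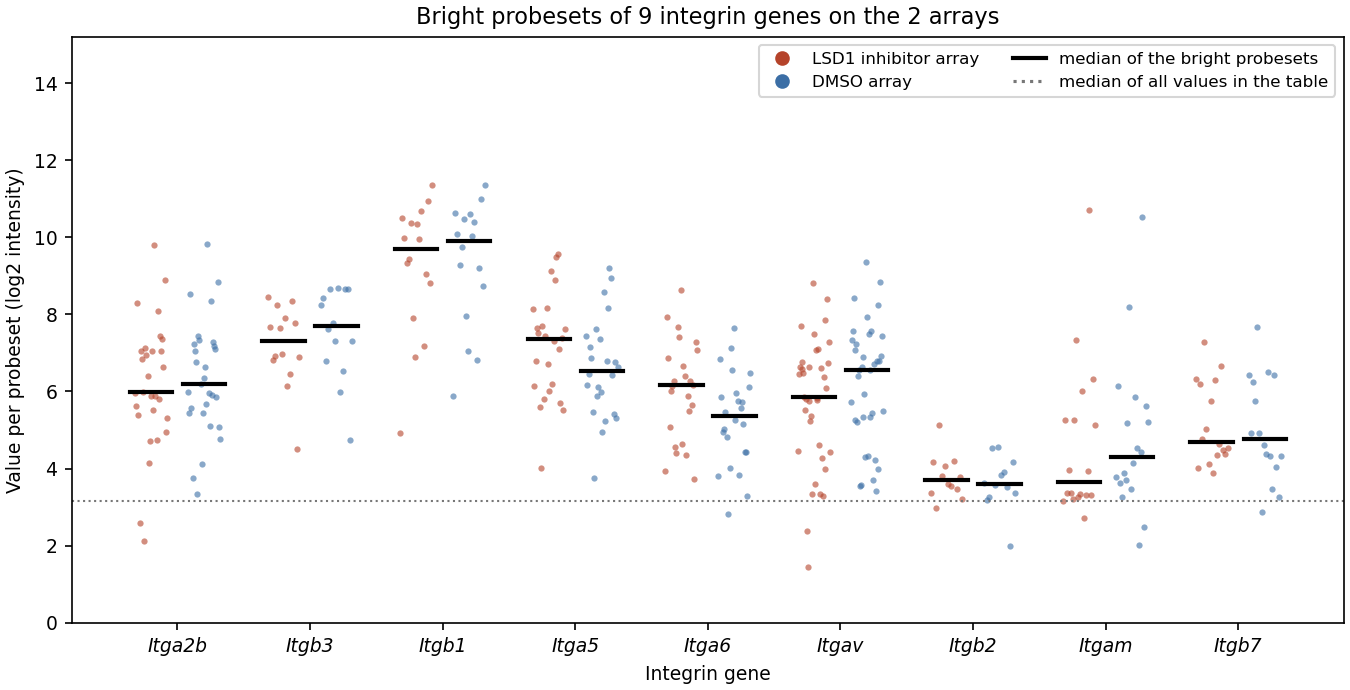
Values of the bright probesets (log2 intensity) of the 9 measured integrin genes on the LSD1 inhibitor array (left of each pair) and the DMSO array (right), 1 point per probeset, with black bars at the medians. The bar is at 7.36 on the inhibitor array and 6.54 on the DMSO array for Itga5, at 6.16 and 5.37 on these arrays for Itga6, and at 5.86 and 6.55 for Itgav.

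Itga2b, the gene of the sort marker, had a level of 5.996 on the inhibitor array and 6.19 on the DMSO array. Of its 31 probesets, 27 on the inhibitor array and 29 on the DMSO array were at or above the table's median. Its difference was -0.12 (SD 0.44 over 29 bright probesets), 1.09-fold lower, with 20 probesets lower and 9 higher. Of all measured genes, 24.5% had a difference at least as low as that of Itga2b. The sort itself selects cells by the CD41 protein, in both cultures alike. The central 50% of the Itga2b bright probesets differed by between -0.29 and 0.04. Under the 13 other ways of processing the values, the difference stayed between -0.17 and -0.10. Some of these ways, such as another minimum of bright probesets, could not change it.

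Itgb3 encodes CD61, the beta chain that joins αIIb on the surface and that also pairs with αV. Its level was 7.31 on the inhibitor array and 7.69 on the DMSO array, and all 14 probesets were bright on both arrays. The difference was -0.33 (SD 0.35), with 11 of 14 probesets lower. It was -0.25 with odd-ranked probesets alone and -0.70 with even-ranked ones alone, so its size depended on which probesets were read. Of all measured genes, 10.03% had a difference at least as low. Both chains of the CD41 receptor thus had differences below 0, and neither passed the size rule.

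Itgav encodes αV, the chain of receptors for vitronectin and for latent TGF-beta. Its level was 5.86 on the inhibitor array and 6.55 on the DMSO array. The difference of -0.49 (SD 0.59), 1.40-fold lower, was the lowest among the 9 measured members, with 33 of 37 bright probesets lower, and 5.23% of all measured genes were at least as low. The 4 higher probesets reached up to 1.32, and 4 of the lower ones were at -1 or below. The β5 chain, another partner of αV, differed by -0.14 (Itgb5, SD 0.59 over 16 probesets), and β8 by -0.01 (Itgb8). The β6 chain, also a partner, differed by -0.34 (Itgb6, SD 0.76, 7 of 9 probesets lower).

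Itga5 and Itga6, alpha chains of a fibronectin and a laminin receptor, had differences above 0, whereas Itga3, another laminin receptor chain, differed by -0.18. Itga5 encodes α5, which with β1 forms the classical fibronectin receptor. Its level was 7.36 on the inhibitor array and 6.54 on the DMSO array, a difference of 0.58 (SD 0.35, 1.498-fold), with 22 of 24 bright probesets higher. The 2 lower ones were close to 0, the lowest at -0.07. Of all measured genes, 6.85% were at least as high. Fn1, which encodes fibronectin, differed by 0.39 (SD 0.18), positive in 47 of 47 probesets, which is also short of the size rule.

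Itga6 encodes α6, a laminin receptor chain found on endothelium, on platelets and on many stem cells. It had a level of 6.16 on the inhibitor array and 5.37 on the DMSO array. The difference of 0.67 (SD 0.57, 1.59-fold) was the highest of the members, with 22 of 24 bright probesets higher. Of these probesets, 8 were at 1 or above and the highest was at 1.74, whereas for Itga5 2 were at 1 or above. Of all measured genes, 5.14% were at least as high as Itga6. At 1.5-fold in place of 2-fold, Itga6 was the single member past the rule, against 5.85% of all measured genes that were then higher. Itga5 fell just short of it at 1.498-fold. No member was lower at 1.5-fold, against 2.66% of all measured genes.

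Itgb1, the beta chain that α5 and α6 share, had a level of 9.69 on the inhibitor array and 9.89 on the DMSO array. Its difference was -0.09 (SD 0.29 over 16 probesets, 12 of them lower). On these arrays 22 of 24 probesets were higher for Itga5 and for Itga6, and 4 of 16 for Itgb1. Probesets are not replicates, and none of these genes passed the size rule. Among the measured laminin chains of the ligand list, Lama5 differed by 0.48, Lama4 by 0.37, Lamb1 by -0.19, Lamc1 by -0.25 and Lama1 by -0.40. None was past the size rule.

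**Figure D2:**
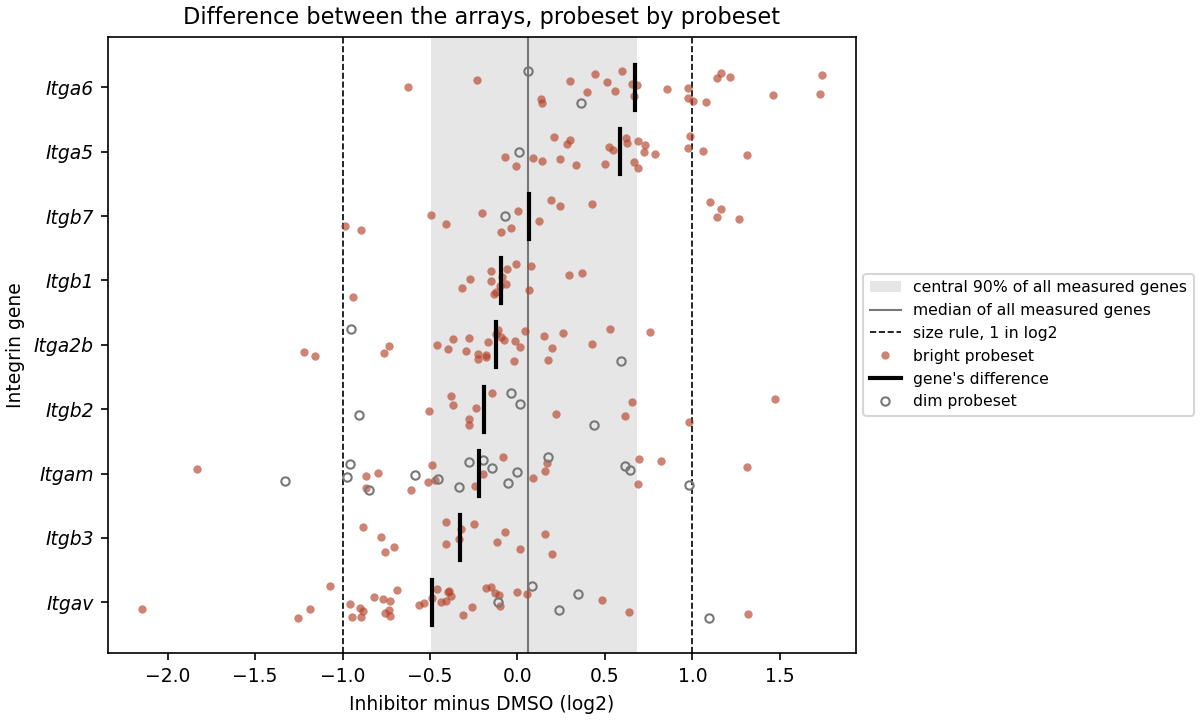
Difference of each probeset (inhibitor minus DMSO, log2) for the 9 measured integrin genes, ordered by the gene's difference (black bar), with dim probesets as open circles. The bars lie between -0.49 and 0.67, inside the grey band of the central 90% of all measured genes and short of the dashed lines of the size rule.

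Itga4 encodes α4, the chain of VLA-4 (with β1) and of the gut homing receptor (with β7), which bind VCAM1, fibronectin and MAdCAM1. Of its 18 own probesets 15 were dim, and the 18 had values from 0.91 to 3.78 on the inhibitor array and from 1.21 to 4.11 on the DMSO array. The median over all 18 was 2.03 on the inhibitor array and 2.07 on the DMSO array, with a median difference of -0.15. Another 50 probesets carry Itga4 together with Cerkl, a ceramide kinase-like gene, and none carries Cerkl alone. In the RefSeq gene table the genes are neighbours whose ends overlap. No other member had a probeset with several symbols.

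The shared probesets were lower on the inhibitor array. Of the 50, 26 were at or above the table's median on the inhibitor array and 39 on the DMSO array. The 40 bright ones had a median of 3.72 on the inhibitor array and 5.04 on the DMSO array. Their median difference was -1.54 (SD 1.08), 2.91-fold lower, with 35 of the 40 lower and 25 at -1 or below. Only 26 of the 40 reached the table's median on the inhibitor array, so the rest count as bright only through the DMSO array. Over all 50, dim ones included, the median difference was -1.06, with 42 lower. Which gene they report cannot be told from the files. The annotation lists Itga4 first in 38 of them. Their 35 bright probesets had a median of 3.75 on the inhibitor array and 5.23 on the DMSO array. The difference was -1.73, with 32 lower, and it was -1.54 over all 38, dim ones included. The annotation lists Cerkl first in 12, whose 5 bright probesets differed by -0.21, and the meaning of that order is not given in the sources used here. When probesets with several symbols were kept, Itga4 was the single member past the size rule, at -1.41 (37 of 43 bright probesets lower), against 0.617% of 15712 genes that were then lower. No member was then higher, against 1.67% of those genes. Over all 68 probesets that name Itga4, dim ones included, the median difference was -0.61, short of the size rule. Whether the shared probesets report Itga4, Cerkl or both was not tested.

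**Figure D3:**
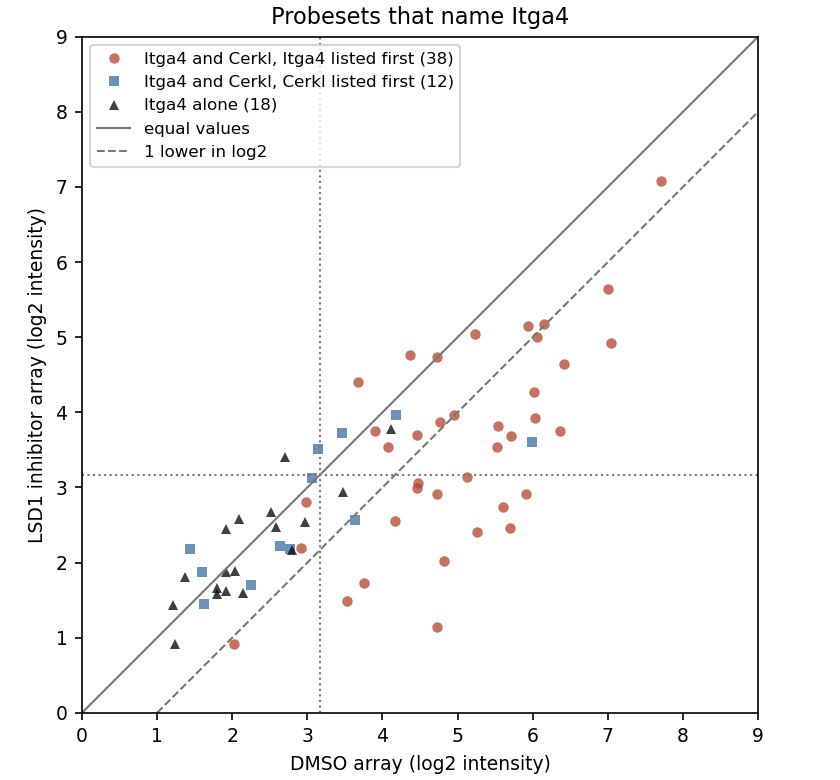
Each probeset that names Itga4, with its value on the LSD1 inhibitor array (vertical) and the DMSO array (horizontal), both log2 intensity; dotted lines mark the table's median of 3.17. Most of the 38 probesets that list Itga4 before Cerkl lie below the line of equal values, 23 of the bright ones by at least 1, whereas 15 of the 18 probesets of Itga4 alone are dim.

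The beta7 partner and a ligand of α4 did not pass the size rule. Itgb7, which pairs with α4 or αE on lymphocytes and mast cells, had a level of 4.70 on the inhibitor array and 4.76 on the DMSO array. Its difference was 0.07 (SD 0.71), with 9 of 16 bright probesets higher and 7 lower. It turned to -0.10 when probesets below the 75th percentile of the table were left out, so no direction is given. Vcam1, the vascular ligand of VLA-4, differed by 0.08 (SD 0.71 over 6 probesets), and Itgae, the αE gene, by 0.19 (SD 0.62).

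The chains of the leukocyte integrin αMβ2, the complement receptor Mac-1, did not pass the size rule. Itgb2, the gene of CD18, had a level of 3.69 on the inhibitor array and 3.61 on the DMSO array, while its difference was -0.19 (SD 0.64), of the opposite sign, with 7 of 12 bright probesets lower. It was 0.23 with even-ranked probesets alone. Itgam, the gene of CD11b, had 18 bright probesets of 34, with levels of 3.66 on the inhibitor array and 4.29 on the DMSO array. Its difference was -0.22 (SD 0.75), with 11 of 18 lower, and it was 0.09 with the 75th percentile filter. No direction is given for either gene. Their ligand gene Icam1 differed by 1.02 (SD 1.01, 6 of 7 probesets higher) and passed the size rule, narrowly, in 7 of the 11 alternatives that measured it. Itgal, the gene of the LFA-1 alpha chain, and Itgax, the gene of the alpha chain CD11c, differed by -0.0026 and -0.62. Both chains also pair with beta2.

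None of the 17 other integrin subunit genes passed the size rule, with all 17 measured. Their median difference was -0.04, 6 were above 0 and 11 below. Those that differed most were Itgax, which had a level of 3.20 on the inhibitor array and 3.91 on the DMSO array, Itga9, the gene of a tenascin receptor chain, at -0.52 (SD 0.90), and Itga7, a laminin receptor chain of muscle, at 0.42 (SD 0.67). Itga7 turned to -0.04 with the 75th percentile filter, and Itgax was at 0 with dim values raised to the table's median.

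Of 23 measured genes that control integrin activation, 2 were higher, none was lower and 21 did not pass the size rule. Over all measured genes 1.72% were higher and 0.563% lower by this rule. Rasgrp3, which activates Ras and Rap GTPases, had a level of 7.26 on the inhibitor array and 4.65 on the DMSO array (difference 2.98, 17 of 18 probesets higher). Fblim1, a filamin and kindlin-binding adaptor, differed by 1.10, with 7 of 9 probesets higher, but by 0.52 with dim values raised to the table's median. Fermt2, which encodes kindlin-2, was just short of the rule at 0.96, with 14 of 14 probesets higher (levels 7.03 on the inhibitor array and 6.11 on the DMSO array). The blood cell kindlin gene Fermt3 differed by 0.12, the talin gene Tln1, whose protein binds beta chain tails, by -0.12, and Rasgrp2, the Rap activator of platelets, by -0.27. Among 32 measured genes of the adhesion complex, Tns2, which encodes a tensin, was the single one past the rule at 1.12 (26 of 27 probesets higher, levels 6.14 on the inhibitor array and 4.91 on the DMSO array), though short of it with dim values raised (0.96) or with its brighter probesets alone (0.86). The adaptor genes Crk (0.49) and Lims2 (-0.71) were next in size. Ilk, the integrin-linked kinase gene, differed by -0.02 and Vcl, the vinculin gene, by -0.45, with 22 of 23 probesets lower.

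Of 27 measured genes of integrin ligands, 3 were higher and 1 was lower, with a median difference of 0.08. The shares over all measured genes were 1.72% higher and 0.563% lower. Tnc, the gene of tenascin C, which α9 and αV integrins bind, had a level of 6.21 on the inhibitor array and 3.97 on the DMSO array. Its difference was 2.12, with 25 of 26 probesets higher. Fbn1, the fibrillin 1 gene, differed by 2.68 and Icam1 as given above, and Thbs1, a thrombospondin gene, by -1.28 with 23 of 23 lower. None of 10 measured surface partners of integrins passed the rule. Cd81, a tetraspanin, differed by 0.38 (9 of 9 probesets higher), the tetraspanin gene Cd63 by 0.35, and Plaur, the urokinase receptor gene, by 0.31 with an SD of 1.15.

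**Figure D4:**
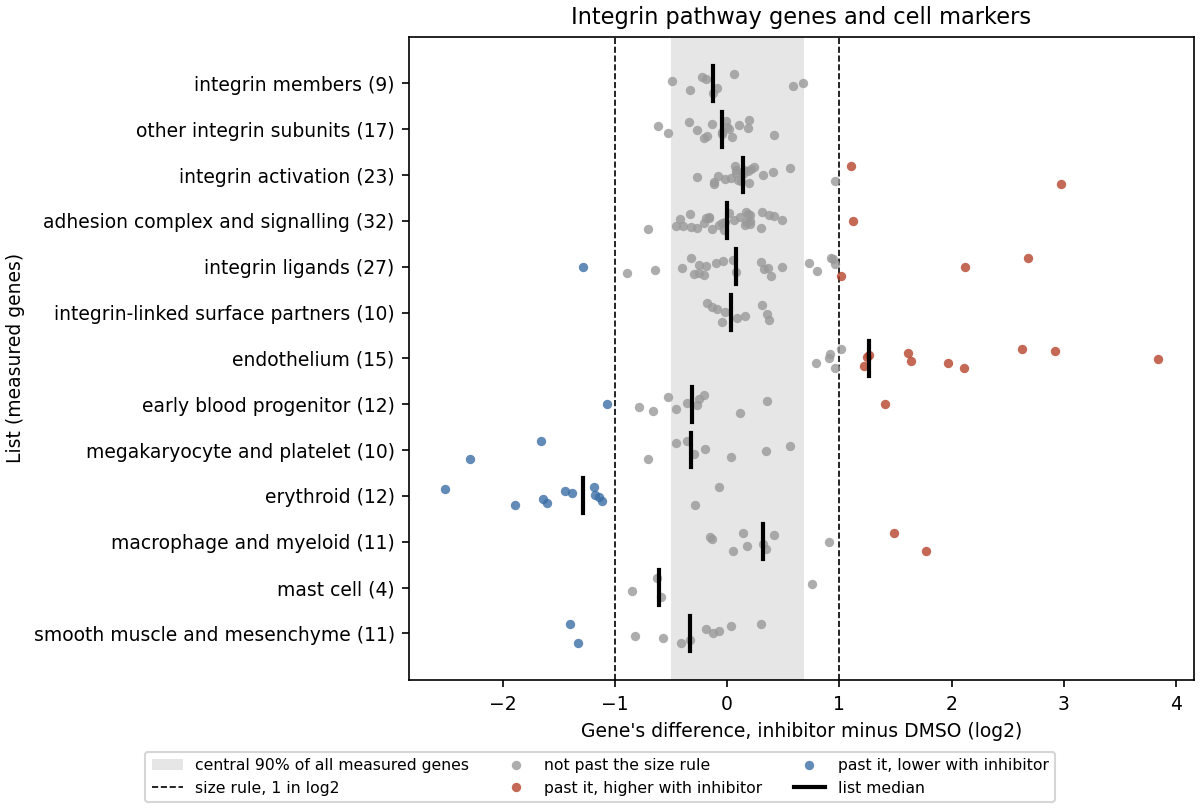
Difference of each measured gene (inhibitor minus DMSO, log2) in the integrin lists and in lists of cell markers, 1 point per gene, coloured by the size rule, with black bars at list medians. The integrin members lie between -0.49 and 0.67, whereas the endothelial list has its median at 1.26 and the erythroid list at -1.28.

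Markers of several cell types differed between the arrays alongside these values, given here by the sum of the log2 levels of each list's measured genes. Such a sum grows with the number of genes and is not an amount of RNA. The median difference per gene was 1.26 for endothelial, -1.28 for erythroid, -0.32 for megakaryocyte and platelet, and 0.32 for macrophage and myeloid markers. By the size rule 1.72% of all measured genes were higher and 0.563% lower. Of 15 measured endothelial markers 10 were higher and none lower. Their sum was 109.7 on the inhibitor array and 86.4 on the DMSO array, and Cldn5 was not measured. Itga5 and Itga6 were higher in most probesets beside these markers. Of 12 measured erythroid markers none was higher and 10 were lower, with a sum of 76.5 on the inhibitor array and 91.9 on the DMSO array, and Ahsp was among those not measured. Of 10 measured megakaryocyte and platelet markers, beside which Itga2b and Itgb3 stand, none was higher and 2 were lower, Pf4 and P2rx1. Pf4 was at -0.64, short of the rule, with dim values raised to the table's median. By sign alone, 3 of these 10 markers were above 0 and 7 below. Their sum was 45.8 on the inhibitor array and 51.2 on the DMSO array, and Gp1ba, Gp5, Gp9 and Ppbp were among those not measured. The macrophage and myeloid list, beside which Itgam and Itgb2 stand, had 2 of 11 higher, Lyz2 and Mrc1 (Mrc1 at 0.96 with dim values raised), and none lower. Its sum was 52.7 on the inhibitor array and 48.5 on the DMSO array, and Elane, Cd14 and Cx3cr1 were not measured.

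Early blood progenitor markers had 1 of 12 higher, Gata2, and 1 lower, Adgrg1, against 1.72% higher and 0.563% lower over all measured genes. Their median difference was -0.31, with 9 of the 12 below 0. Their sum was 81.5 on the inhibitor array and 84.0 on the DMSO array. Runx1, of this list, and the endothelial marker Cdh5 had levels of 8.60 and 9.84 on the inhibitor array, against 8.44 and 7.89 on the DMSO array. Bulk levels do not show whether the same cells held both. Of 11 measured smooth muscle and mesenchyme markers none was higher and 2 were lower, Postn and Dcn (Dcn at -0.76 with dim probesets kept and at 0 with dim values raised), with a sum of 62.2 on the inhibitor array and 66.8 on the DMSO array, and Lum was not measured. None of 4 measured mast cell markers passed the size rule (sum 14.6 on the inhibitor array and 15.8 on the DMSO array), and Mcpt4, Fcer1a, Ms4a2 and Gzmb were not measured. Fewer cells of a type and less RNA per cell cannot be told apart in sorted bulk RNA, and the part of these shifts in the integrin values was not tested.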

How the data were processed

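The deposited values, for 1048575 probesets on each array, are read here as log2 intensity from their range of 0.157 to 13.5. How the authors summarised and normalized them, and on which genome build, is not given in the sources used here. No further scaling was applied. The 2 arrays' sorted values differ by at most 0.085 at equal rank. The platform annotation names 270105 probesets with 1 symbol and 5737 with several. Symbols were updated through the RefSeq gene table. A gene needed at least 4 bright probesets, and 15087 genes had them. The size rule (difference of at least 1 in log2, at least 75% of bright probesets agreeing in sign) stands in for a test, since each group has 1 array, and it was applied to the whole table. The measure was tested on simulated data in which genes were unchanged or shifted past the size rule. That test does not bear on differences of the members' size. Alternatives were 3 scalings, other filters and minimums, the mean, other probeset subsets and other thresholds. Python 3.11.15, pandas 2.3.3 and statsmodels 0.14.6 were used. All members were named, and in each integrin list every gene past the rule and the 3 with the largest absolute difference; other genes named were chosen for their role as partners, ligands or adaptors after values were seen. In marker lists up to 3 genes with a call were named, beside markers not measured and Runx1 and Cdh5. The members and lists were chosen with earlier results of these data known. No gene was named for a pattern like a member's, because 2 arrays give a single difference per gene. The labels' replicate structure allows no error between samples.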

Additional observations from a re-analysis of the deposited data

How the results depend on the processing

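Across 13 ways of processing the values, 6 of the 9 measured members (Itga2b, Itgb3, Itgb1, Itga5, Itga6 and Itgav) kept the sign of their difference, and Itgb2, Itgam and Itgb7 changed it in at least 1, never under the 3 array scalings. None of the 9 passed the 2-fold rule in any of them. Changing the minimum of bright probesets or keeping probesets of several symbols left these 9 unchanged by construction. Itga5 stayed between 0.53 and 0.64, Itga6 between 0.63 and 0.91 and Itgav between -0.76 and -0.40. At 1.5-fold, 1 member was higher (Itga6), and Itga5 was just short at 1.498-fold. With probesets of several symbols kept, 1 was lower (Itga4), through bright probesets it shares with Cerkl. Over all 68 probesets that name Itga4, dim ones included, its median difference was -0.61, short of the rule. The members' median of -0.12 was 0 when dim values were raised to the median of the table, which by construction sets differences between dim values to 0. Of 7 genes of the 5 integrin pathway lists past the rule, 4 (Rasgrp3, Thbs1, Tnc and Fbn1) passed it in every alternative that measured them, and Fblim1, Tns2 and Icam1 did not. No replicate could be left out and no paired analysis was possible because each condition has 1 array. Without detection calls, dim values and background are not separable.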

Other observations

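Single probesets stood apart from the rest of their gene. In Itgam, 1 probeset had 10.7 on the inhibitor array and 10.5 on the DMSO array, while the next brightest had 7.34 on the inhibitor array and 8.20 on the DMSO array, and 16 of the 34 were dim. In Itgav, 1 bright probeset was at -2.15 and another at 1.32. In Itgb1, 15 of the 16 probesets differed by between -0.31 and 0.37, and the dimmest on both arrays by -0.94. In Itgb7, 4 of 16 bright probesets were at 1 or above, although the gene's difference was 0.07. In the shared probesets of Itga4 and Cerkl the largest single difference was -3.58.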
